A study of Mus musculus with 16 samples.

Results

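The NMDA receptor subunit genes *Grin1*, *Grin2a*, *Grin2b*, *Grin2c*, *Grin2d* and *Grin3a* were followed in mouse hippocampus. Members were chosen by name: each probe of the array whose gene symbol, or an older symbol of the same Entrez gene, is one of these 6 genes. The rule found 6 of the 25697 probes, which read 5 of the 6 genes: 2 probes for *Grin1* and 1 each for *Grin2a*, *Grin2b*, *Grin2c* and *Grin2d*. No probe matched *Grin3a*. The series holds 16 Illumina MouseRef-8 v2 beadchip arrays, on which the fluorescence of many beads is averaged into a signal for each probe. There were 4 WT and 4 *Mef2c*-het arrays at postnatal day (P) 1, and 4 WT and 4 *Mef2c*-het arrays at P30. The *Mef2c*-het mice, called KO in the labels, carried 1 copy of a conventional allele that lacks exon 2 of *Mef2c* in all cells, on the C57BL/6J background, and the WT mice were their littermates. The labels name no drug treatment for any array. The labels name neither litter nor chip, so the p-values measure the spread between these samples.

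NMDA receptors are glutamate-gated channels that open when glutamate and a co-agonist, glycine or D-serine, are bound and depolarisation has relieved a magnesium block. Each channel pairs the obligatory GluN1 subunit, encoded by *Grin1*, with GluN2 subunits (*Grin2a* to *Grin2d*) or GluN3 subunits. In the forebrain GluN2B and GluN2D are known as subunits of early life, GluN2A as a subunit that increases after birth, and GluN2C as a subunit of cerebellar granule cells and some glia. MEF2C is an activity-regulated transcription factor of neurons. The study tested memantine and NitroSynapsin, which block overactive NMDA receptors, in *Mef2c*-het mice, and the arrays allow the receptor's own transcripts to be read across age and genotype.

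In GRCm38.p6, *Grin1* (Entrez gene 14810) lies at chr2:25291177-25319187, where the non-coding gene *Grin1os* (chr2:25291258-25298660) lies within its bounds. *Grin2a* (14811) lies at chr16:9567901-9996083, *Grin2b* (14812) at chr6:135713221-136173615, *Grin2c* (14813) at chr11:115249169-115267297 and *Grin2d* (14814) at chr7:45831883-45871194. The exon read by each probe was not determined, so the values cannot be assigned to isoforms.

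RefSeq promoter windows of GRCm38.p6 were given for 3 of the 6 members. The 250 bases before the start are shown for *Grin1*, which both of its probes called higher at P30, and for *Grin2c*, which was detected at both ages without a called change, both on the minus strand and written 5′ to 3′. Capitals mark the GC box GGGCGG, a letter motif bound by Sp1-type factors, searched on both strands.
Grin1, chr2:25319188-25319437: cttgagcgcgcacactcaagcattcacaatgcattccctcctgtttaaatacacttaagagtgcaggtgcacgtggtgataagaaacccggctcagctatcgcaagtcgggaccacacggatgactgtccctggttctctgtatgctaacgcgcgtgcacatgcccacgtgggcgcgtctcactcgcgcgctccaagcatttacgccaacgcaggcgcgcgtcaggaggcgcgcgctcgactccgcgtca
Grin2c, chr11:115267244-115267493: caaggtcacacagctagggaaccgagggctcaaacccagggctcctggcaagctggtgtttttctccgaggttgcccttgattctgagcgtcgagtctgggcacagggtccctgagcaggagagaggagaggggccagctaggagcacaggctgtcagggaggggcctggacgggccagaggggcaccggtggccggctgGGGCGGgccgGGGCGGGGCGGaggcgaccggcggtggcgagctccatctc
The *Grin1* window had 58.8% G and C and no GC box. The *Grin2c* window had 68.8% G and C and 3 GC boxes, whose first bases lay 50, 40 and 35 bases before the start and of which the last pair shares a base. The third window, of *Grin2d*, is not shown and had 54.4% G and C and no GC box. Of all 32851 promoter windows of the same length, 32.7% held a GC box. A link between these letters and the changes with age was not tested. A loose form of the core motif to which MEF2 proteins bind was also searched, with its outer bases fixed and its central bases free. This pattern, a palindrome that reads alike on both strands, was in neither window shown and in 3.2% of all windows. With the centre free, a match need not be a MEF2 site, so 3.2% is not the share of windows with such a site. The annotated *Grin2c* gene runs past the start used here and into its window, so that another start is annotated there. All 3 GC boxes lie in the stretch covered by the annotated gene.

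All 6 probes were dim. Their signals lay between 103.9 and 292 intensity units, where the dimmest probes detected on an array read 131 to 206 units. A probe was called detected on an array when its signal passed the negative control beads with a detection p under 0.05. *Grin2c* was detected on 15 of 16 arrays, the *Grin1* probes ILMN_1216667 and ILMN_1253164 on 11 and 9, *Grin2b* on 8, *Grin2a* on 4 and *Grin2d* on 0. The standard error over the beads was 2.35% to 7.05% of these signals, with 22 to 55 beads a probe. Signals were transformed to log2 and quantile normalized, and a probe was tested with limma when it was detected on at least 4 arrays of the fit, so that *Grin2d* was never tested. Levels of different probes are not compared with each other here.

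The tissue was checked against its markers, with 12638 to 14150 probes detected on an array. Of 8 markers of hippocampal principal neurons, all were detected on at least 1 array of both P1 groups and 7 of both P30 groups (*Neurod6* was not). Of the cerebellar granule cell markers with a probe, *Gabra6*, *Cbln3* and *Pax6* were detected on no array and *Cbln1* on all 16. In each group 4 of 5 thalamus markers were detected on all arrays. Each of the 4 choroid plexus markers with a probe was detected on at least 1 array of each group. Whether tissue from outside the hippocampus was present was not tested. The neuronal marker *Snap25* was detected on no array either, while the other 4 neuron markers were. By *Xist* and Y-linked probes 5 of the 8 P1 mice were read as female and all 8 P30 mice as male, so age is partly confounded with sex. *Mef2c* was read by 2 tested probes, with log2 differences of *Mef2c*-het from WT of -0.01 and 0.07 at P1 and of -0.29 and -0.24 at P30, with adjusted p-values from limma of at least 0.976. The arrays of each age fell into a larger and a smaller cluster, of 6 and 2 arrays at P1 and 5 and 3 at P30. The smaller clusters (WT replicate 8 and *Mef2c*-het replicate 8 at P1, WT replicates 6 and 7 and *Mef2c*-het replicate 7 at P30) had a higher 5th percentile of signal, 140.0 to 161 units against 106 to 131.

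**Figure D1:**
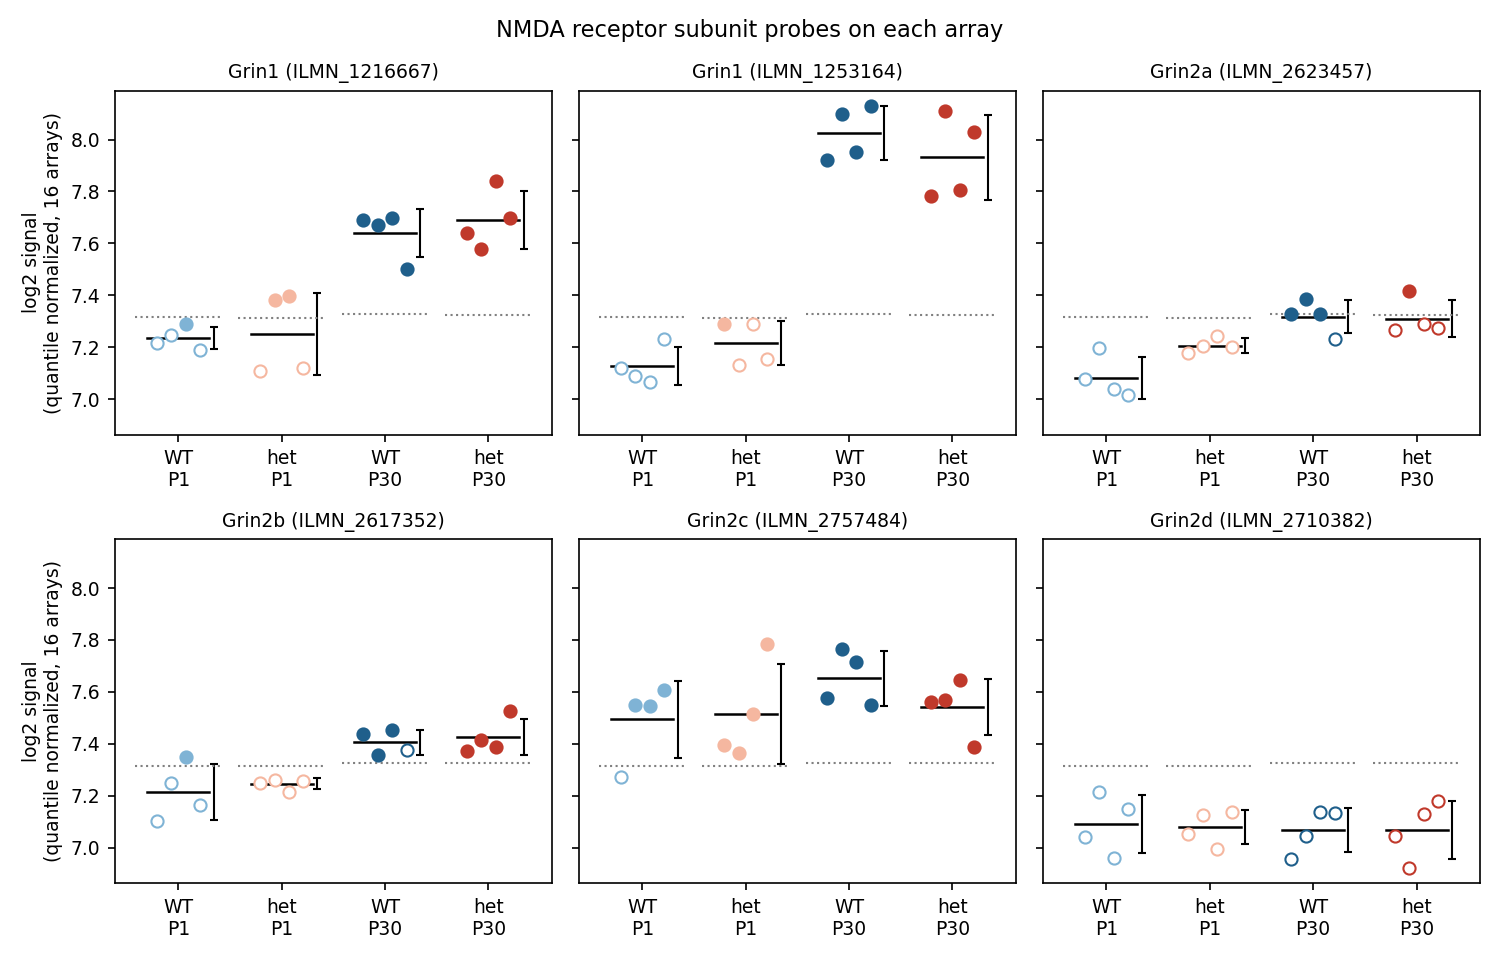
Log2 signal (y axis, quantile normalized over 16 arrays) of each NMDA receptor probe on each array, by genotype and age; filled points were detected, open points were not, black lines are means with SD bars (n = 4), and dotted lines are the mean log2 signal of the dimmest detected probe of each array. Both *Grin1* probes and the *Grin2b* and *Grin2a* probes sat higher at P30 than at P1 in both genotypes, *Grin2c* overlapped between the ages, and *Grin2d* stayed below the dotted lines.

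In WT hippocampus, 4 of the 5 tested NMDA receptor probes were higher at P30 than at P1 and none was lower. These were both *Grin1* probes, *Grin2a* and *Grin2b*. Over all 14777 probes tested, 28% were called higher and 31.7% lower. Groups did not overlap for these 4 probes, which held for 25.3% of all probes in that direction. None of the 4 was detected on as many as 4 P1 arrays, so each passed the filter on low values only with the P30 arrays. *Grin2a* passed it through the P30 arrays alone. The counts and the lack of overlap in both genotypes therefore favour rises and are no support for them. In *Mef2c*-het hippocampus, both *Grin1* probes and *Grin2b* were higher at P30, 3 of the 5 probes, where 26.9% of all probes were called higher and 31.4% lower. The ages did not overlap for these 3 probes and for *Grin2a*, as for 24.3% of all probes in that direction. *Grin2c* passed the test in neither genotype.

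*Grin1* encodes the subunit that every NMDA receptor needs. The probe ILMN_1253164 read 7.12, 7.09, 7.07 and 7.23 (log2 signal) on the WT P1 arrays and 7.92, 8.10, 7.95 and 8.13 on the WT P30 arrays. On the *Mef2c*-het arrays it read 7.29, 7.13, 7.29 and 7.15 at P1 and 7.78, 8.11, 7.80 and 8.03 at P30. Every P30 array lay above every P1 array in both genotypes, and the probe was detected on none of the WT P1 arrays, on 1 *Mef2c*-het P1 array and on all 8 P30 arrays. The WT mean rose from 7.13 ± 0.073 to 8.02 ± 0.10 (SD, n = 4), a log2 change of 0.90 (standard error 0.080, adjusted p = 5.68e-08, limma). Against the dimmest detected probes of the P1 arrays the group means differ by at least 1.63-fold. The *Mef2c*-het mean rose from 7.22 ± 0.086 to 7.93 ± 0.16 (SD, n = 4), a log2 change of 0.72 (standard error 0.080, adjusted p = 8.83e-07, limma).

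The other *Grin1* probe, ILMN_1216667, rose less. It read 7.22, 7.25, 7.29 and 7.19 on the WT P1 arrays and 7.69, 7.67, 7.70 and 7.50 on the WT P30 arrays. On the *Mef2c*-het arrays it read 7.11, 7.38, 7.40 and 7.12 at P1 and 7.64, 7.58, 7.84 and 7.70 at P30. The ages did not overlap in either genotype, and the *Mef2c*-het P1 arrays split into a lower and a higher pair. The log2 change was 0.41 in WT (standard error 0.079, adjusted p = 0.000298, limma) and 0.44 in *Mef2c*-het mice (standard error 0.079, adjusted p = 0.000148, limma). With normexp background correction these changes were 1.27 and 1.29. The 2 *Grin1* probes thus moved in the same direction by unequal amounts: the first minus the second changed from a mean of -0.11 at WT P1 to 0.38 at WT P30, and from -0.04 to 0.24 in *Mef2c*-het mice. Whether this unequal change lies in isoforms or in background light was not tested.

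*Grin2a* encodes GluN2A, the subunit of mature synapses. Its probe read 7.08, 7.20, 7.04 and 7.02 on the WT P1 arrays and 7.33, 7.39, 7.33 and 7.23 on the WT P30 arrays. The *Mef2c*-het arrays read 7.18, 7.20, 7.24 and 7.20 at P1 and 7.26, 7.42, 7.29 and 7.27 at P30. No P1 array detected the probe, while 3 of 4 WT and 1 of 4 *Mef2c*-het arrays did so at P30. The WT mean rose from 7.08 ± 0.081 to 7.32 ± 0.065 (SD, n = 4), a log2 change of 0.24 (standard error 0.056, adjusted p = 0.00176, limma). Against the dimmest detected probes of the P1 arrays this is at least 1.00-fold, so its size has no useful lower limit. The probe was detected on only 4 arrays, so it was no longer tested when WT P30 replicate 2, 3 or 6 was left out. In *Mef2c*-het mice the log2 change was 0.10 (standard error 0.056, adjusted p = 0.129, limma), and although the 4 P30 arrays lay above the 4 P1 arrays (exact permutation p = 0.0286, two-sided, the smallest that 4 against 4 allow) the fit did not call it. With normexp background correction the *Mef2c*-het change was 0.34 and was called (adjusted p = 0.0408, limma).

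*Grin2b* encodes GluN2B, the subunit that predominates early in life. Its probe read 7.10, 7.25, 7.35 and 7.16 on the WT P1 arrays and 7.44, 7.36, 7.45 and 7.38 on the WT P30 arrays. In *Mef2c*-het mice it read 7.25, 7.26, 7.22 and 7.26 at P1 and 7.37, 7.42, 7.39 and 7.53 at P30. The groups did not overlap, with 1 WT and no *Mef2c*-het array detecting the probe at P1 and 3 WT and 4 *Mef2c*-het arrays at P30. The log2 change was 0.19 in WT (standard error 0.059, adjusted p = 0.0105, limma) and 0.18 in *Mef2c*-het mice (standard error 0.059, adjusted p = 0.0152, limma). For *Mef2c*-het mice the ratio of group means against the dimmest detected probes of the P1 arrays was 1.08. That ratio leaves out the spread between arrays, and the 95% interval of the log2 change was 0.05 to 0.30. Both calls were lost when the larger array clusters were used alone (0.18, adjusted p = 0.0977, and 0.16, adjusted p = 0.0851, limma), and the *Mef2c*-het call also without *Mef2c*-het P30 replicate 7 (0.15, adjusted p = 0.0532).

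*Grin2c*, whose protein GluN2C forms channels with weak magnesium block, did not change detectably with age. It read 7.27, 7.55, 7.55 and 7.61 on the WT P1 arrays and 7.57, 7.77, 7.72 and 7.55 on the WT P30 arrays. The *Mef2c*-het arrays read 7.39, 7.37, 7.52 and 7.78 at P1 and 7.56, 7.57, 7.65 and 7.39 at P30. The ages overlapped in both genotypes, and the highest of the 16 values belonged to a P1 array. The log2 change was 0.16 in WT (95% interval -0.05 to 0.36, adjusted p = 0.175, limma) and 0.03 in *Mef2c*-het mice (-0.18 to 0.23, adjusted p = 0.839).

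*Grin2d* encodes GluN2D, an embryonic and interneuron-enriched subunit. Its probe read 6.92 to 7.22 over the 16 arrays, with means of 7.09 ± 0.11 at WT P1, 7.08 ± 0.067 at *Mef2c*-het P1, 7.07 ± 0.086 at WT P30 and 7.07 ± 0.11 at *Mef2c*-het P30 (SD, n = 4). All 4 groups overlapped and no array detected it, so that a change was not detectable with this probe.

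The developmental exchange of GluN2B for GluN2A is one of proteins, while the arrays read transcripts. For the transcripts, the *Grin2a* log2 signal minus that of *Grin2b* was taken on each array. Only the change of this value between groups has a meaning. In WT it changed from -0.13 ± 0.13 at P1 to -0.09 ± 0.081 at P30 (SD, n = 4), a difference of 0.05 (exact permutation p = 0.657, two-sided). In *Mef2c*-het mice it changed from -0.04 ± 0.045 to -0.12 ± 0.10 (SD, n = 4), a difference of -0.08 (exact permutation p = 0.286). With *Grin2a* detected on no P1 array and *Grin2b* on 1 of 8, an exchange of the subunit transcripts was not detectable here. Without *Mef2c*-het P30 replicate 5 the *Mef2c*-het difference was -0.11, with an exact permutation p of 0.0286, the smallest that 3 against 4 allow. That array held the highest *Grin2a* value of its group and was the only one there to detect the probe. Over the 8 arrays left out in turn the exact permutation p reached 0.543, so no exchange is read from this value.

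**Figure D2:**
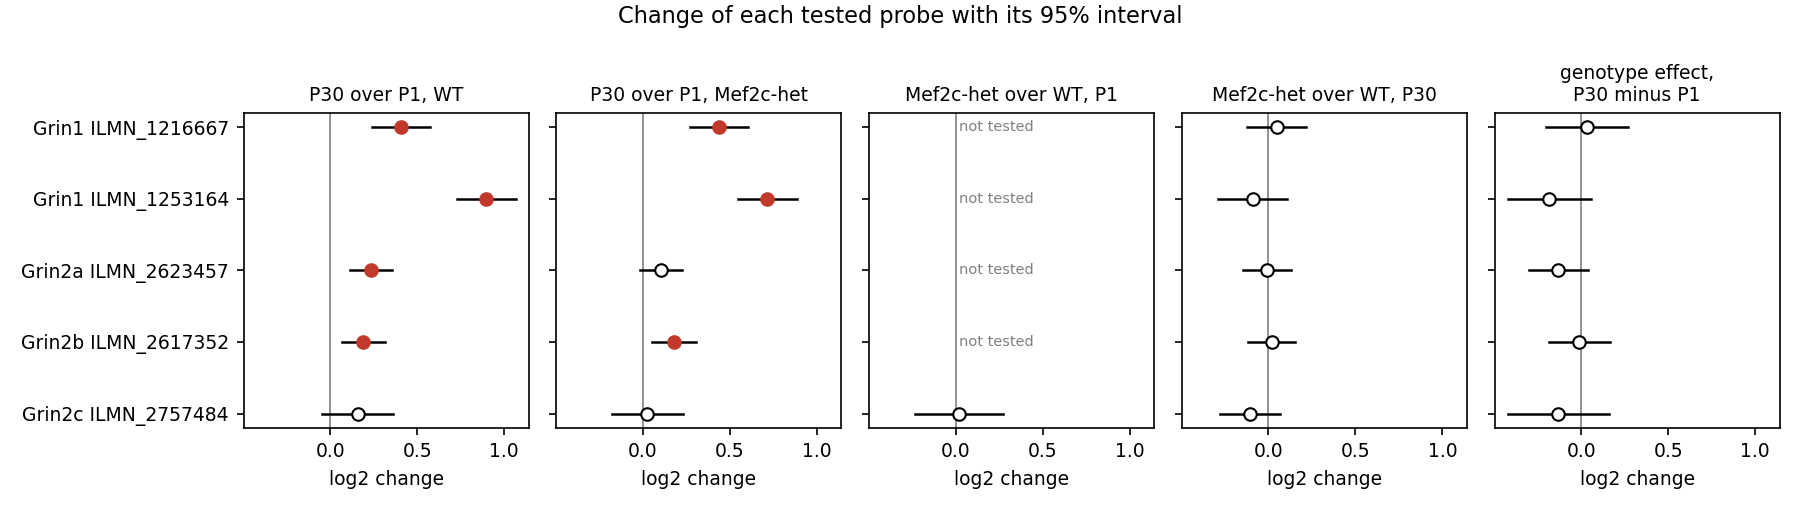
Log2 change (x axis) of each tested NMDA receptor probe in 5 comparisons, with 95% intervals from limma that are not adjusted for multiple testing; red points passed an adjusted p of 0.05. Calls appear in the 2 age comparisons, led by *Grin1* ILMN_1253164 at 0.90 in WT and 0.72 in *Mef2c*-het, and in none of the 3 genotype comparisons.

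At P30, the age the study reports, no NMDA receptor probe differed between *Mef2c*-het and WT hippocampus. Of 5 probes tested 0 passed the adjusted threshold in limma and 0 had an unadjusted p under 0.05, where 0.00746% and 2.36% of the 13413 probes did. In this fit the P30 arrays were normalized alone. *Grin1* ILMN_1253164 read 7.999 ± 0.10 in WT and 7.91 ± 0.16 in *Mef2c*-het mice (SD, n = 4), a log2 difference of -0.09 (95% interval -0.29 to 0.11). For *Grin1* ILMN_1216667 the difference was 0.05 (-0.12 to 0.22) and for *Grin2a* -0.01 (-0.15 to 0.13). For *Grin2b* it was 0.02 (-0.11 to 0.15) and for *Grin2c* -0.11 (-0.28 to 0.06). The genotypes overlapped for each of the 5 probes, where over all probes 0.574% did not overlap with the *Mef2c*-het arrays higher and 1.18% with them lower, and the adjusted p-values from limma were 0.976 to 0.990. The intervals leave differences of up to 0.29 on this scale undecided, which is compressed for signals so near the background.

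At P1 only *Grin2c* was detected on enough arrays to be tested. It read 7.50 ± 0.16 in WT and 7.53 ± 0.20 in *Mef2c*-het mice (SD, n = 4), a log2 difference of 0.02 (95% interval -0.23 to 0.27, adjusted p = 1.00, limma). Of the 13566 probes tested at P1, 0% were called and 1.62% had an unadjusted p under 0.05. All 6 probes overlapped between the genotypes, where over all probes 0.56% did not overlap with the *Mef2c*-het arrays higher and 0.73% with them lower. Among the 5 untested probes *Grin2a* was furthest apart, 0.13 higher in *Mef2c*-het mice (exact permutation p = 0.0571, two-sided), and it was not detected on any of the 8 arrays. *Grin1* ILMN_1253164 was 0.09 higher (exact permutation p = 0.171), *Grin2b* 0.03 higher (p = 0.571, exact) and *Grin1* ILMN_1216667 0.02 higher (p = 0.83, exact).

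Between P1 and P30 the genotype effect of no member passed the test of a difference, but this test says little for these probes. Of the 5 in the fit, *Grin2c* alone was detected on enough P1 arrays to be tested at that age; the others entered mainly through the P30 arrays, and *Grin2a* was detected on no P1 array, so their P1 part is a difference of signals near background. The difference of the effects, P30 minus P1, was -0.18 (95% interval -0.42 to 0.06) for *Grin1* ILMN_1253164 and -0.13 (-0.30 to 0.04) for *Grin2a*. It was -0.13 (-0.42 to 0.16) for *Grin2c*, -0.01 (-0.19 to 0.17) for *Grin2b* and 0.03 (-0.20 to 0.27) for *Grin1* ILMN_1216667. None passed the threshold (adjusted p of 0.998 or more, limma), nor did any of the 14777 probes (0%), of which 2.96% had an unadjusted p under 0.05. Whether the *Grin2a* change with age, called in WT and not in *Mef2c*-het mice, differs between the genotypes could not be determined from this probe. The *Grin2a* minus *Grin2b* value differed between genotypes by 0.09 at P1 (exact permutation p = 0.286) and by -0.03 at P30 (exact permutation p = 0.771).

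The receptor works with a wider set of proteins, and 41 such genes were listed by role, of which 39 had a probe and 31 were tested. In WT hippocampus 18 were higher at P30, 8 lower and 5 were not called, with a median log2 change of 0.50 against -0.03 over all probes, of which 28% were called higher and 31.7% lower. In *Mef2c*-het mice 16 were higher, 7 lower and 8 not called, with a median of 0.24 against -0.02 over all probes, of which 26.9% were called higher and 31.4% lower. The counts by role below are small and are read against the same shares. Unlike the subunits, most of these genes read far above background. *Grina*, the tested relative named after the receptor though it is no channel subunit, rose from 13.70 ± 0.068 to 14.49 ± 0.058 in WT (SD, n = 4), by 0.79 (standard error 0.057), and by 0.85 in *Mef2c*-het mice. *Grin3b*, which encodes a glycine-binding subunit, was detected on no array.

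All 3 tested calcium effectors of the receptor rose in both genotypes. *Rasgrf1*, a calcium-dependent activator of Ras, rose from 8.93 ± 0.32 to 14.44 ± 0.095 in WT (SD, n = 4), a log2 change of 5.51 (standard error 0.13, adjusted p = 9.12e-15, limma), or 45.6-fold. In *Mef2c*-het mice it rose by 5.28. *Camk2a*, the kinase subunit that binds the GluN2B tail after calcium entry, rose by 3.93 in WT (standard error 0.15) and by 3.75 in *Mef2c*-het mice. *Camk2b*, a further subunit of the same kinase, rose by 0.94 in WT (standard error 0.090) and by 0.65 in *Mef2c*-het mice. *Nos1* and *Rasgrf2* were too dim to be tested.

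Of the anchoring, transport and partner genes, 6 of 10 tested were higher and 4 lower in WT, and 6 and 2 in *Mef2c*-het mice. *Dlg4*, which encodes PSD-95, the main scaffold of the mature synapse, rose by 1.75 in WT (standard error 0.084) and by 1.56 in *Mef2c*-het mice. *Dlg3*, which encodes SAP102, rose by 1.60 and 1.502. *Ephb2*, an ephrin receptor that binds GluN1, fell by 1.93 in WT (standard error 0.094) and fell by 1.92 in *Mef2c*-het mice. *Lin7c*, an adaptor of the complex that carries GluN2B vesicles, fell by 0.71 in WT (standard error 0.27, adjusted p = 0.0337, limma), with overlapping groups, and was not called in *Mef2c*-het mice (-0.50). Its WT call was lost with sex as a covariate (-0.26, adjusted p = 0.511), with median scaling, with no filter, with trend and robust variances, and without WT P1 replicate 4 or 5 or WT P30 replicate 6 or 7 (-0.73 to -0.46). The *Mef2c*-het fall of *Lin7c* stayed uncalled in 8 of 10 alternative settings. It was called with array cluster as a block (-0.50, adjusted p = 0.00505, limma) and in the larger clusters alone (-0.56, adjusted p = 0.0179, limma). Of 8 arrays left out in turn, 1 gave a call, *Mef2c*-het P1 replicate 8 (-0.72, adjusted p = 0.0270, limma).

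Of 7 tested kinases and phosphatases that act on the receptor, 4 were higher and 1 lower in both genotypes. *Ptk2b*, which encodes the calcium-activated kinase Pyk2, rose from 7.50 ± 0.078 to 10.85 ± 0.15 in WT (SD, n = 4), by 3.35 (standard error 0.081), and by 3.22 in *Mef2c*-het mice. *Cdk5*, a kinase of GluN2A and GluN2B, rose by 0.79 in WT (standard error 0.094) and by 0.62 in *Mef2c*-het mice. *Csnk2a1*, a subunit of casein kinase 2, which phosphorylates GluN2B, fell by 0.19 in WT (standard error 0.067, adjusted p = 0.0189, limma) and fell by 0.17 in *Mef2c*-het mice (adjusted p = 0.0378). The *Csnk2a1* calls were lost in the larger clusters alone, where the changes were -0.16 in both genotypes (adjusted p = 0.198 and 0.134, limma). They were also lost in WT without WT P1 replicate 5 (-0.18) or WT P30 replicate 7 (-0.17), and in *Mef2c*-het mice when any of *Mef2c*-het P1 replicates 4 and 8 and P30 replicates 3, 6 and 7 was left out or the 8 *Mef2c*-het arrays were fitted alone (-0.17 to -0.13).

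Of 7 tested genes that supply or remove the co-agonists, 4 were higher and 2 lower in WT, and 2 and 2 in *Mef2c*-het mice. *Slc7a10*, a transporter of D-serine and glycine, rose by 1.09 in WT (standard error 0.15) and by 1.30 in *Mef2c*-het mice. *Slc6a9*, the glycine transporter GlyT1, rose by 0.98 and 0.99. *Slc1a4*, a serine and alanine transporter, fell by 1.37 in WT (standard error 0.095) and fell by 1.62 in *Mef2c*-het mice. *Phgdh*, the first enzyme of serine synthesis, fell by 0.56 in WT (standard error 0.13) and fell by 0.37 in *Mef2c*-het mice, and these calls were lost with sex as a covariate (-0.33 and -0.21, adjusted p = 0.0516 and 0.144, limma). The *Mef2c*-het call of *Phgdh* was also lost with median scaling, where the change was -0.42, with cyclic loess (-0.29), and without *Mef2c*-het P1 replicate 1 or 4 or P30 replicate 6 (-0.33 to -0.30).

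Of the genes reported to act on the exchange of GluN2 subunits, 3 were tested, of which 1 was lower in WT and 2 in *Mef2c*-het mice. *Reln*, the secreted protein reelin, fell from 13.70 ± 0.029 to 11.63 ± 0.065 in WT (SD, n = 4), a change of -2.07 (standard error 0.084), and changed by -2.27 in *Mef2c*-het mice. *Rest*, a repressor of neuronal genes, was detected in no group at either age and *Grm5* had no probe.

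**Figure D3:**
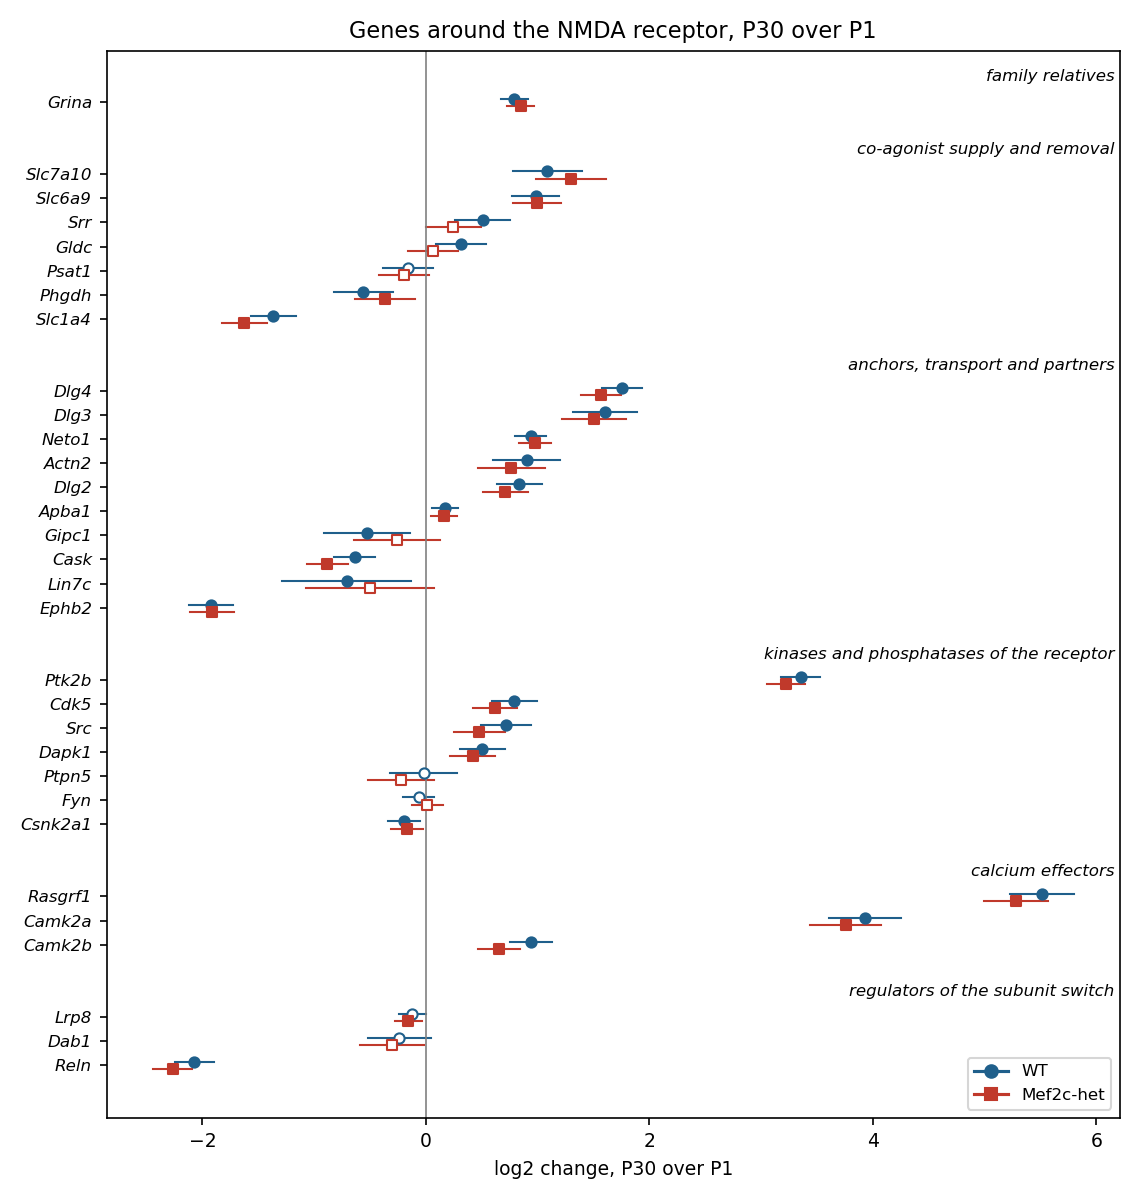
Log2 change from P1 to P30 (x axis) of 31 tested genes around the NMDA receptor, by role, in WT (blue circles) and *Mef2c*-het (red squares) mice, with unadjusted 95% intervals from limma; filled symbols passed an adjusted p of 0.05. *Rasgrf1* (5.51 in WT), *Camk2a* (3.93) and *Ptk2b* (3.35) lie furthest right and *Reln* (-2.07) and *Ephb2* (-1.93) furthest left.

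Cell type markers moved with age in the same arrays. A summed level is the log2 of the summed linear signals of a list's probes, over the arrays of both genotypes, and mostly follows the brightest probes. Of 8 markers of hippocampal principal neurons 3 were higher and 3 lower in WT, with a median log2 change of -0.02. Their summed level was 11.29 to 11.59 at P1 and 13.37 to 13.60 at P30. Of 4 tested neuron markers 2 were higher and 2 lower, with a summed level of 14.60 to 14.84 at P1 and 14.57 to 14.78 at P30. All 6 oligodendrocyte markers were higher at P30 in WT, with a median log2 change of 5.55 and a summed level of 10.17 to 10.47 at P1 and 15.95 to 16.16 at P30. Of 6 astrocyte markers 5 were higher, with a median of 0.81 and a summed level of 14.42 to 14.69 at P1 and 15.09 to 15.25 at P30. All 6 tested interneuron markers were higher, with a median of 1.29 and a summed level of 13.38 to 13.55 at P1 and 14.65 to 15.08 at P30, while *Gad2* and *Lhx6* were detected in no group. Of 5 thalamus markers 4 were higher and 1 lower in WT, and the summed choroid plexus level ranged from 10.18 to 14.94 over the 16 arrays. The part of these cells in the changes of the receptor genes was not tested. In whole tissue, fewer cells of a type and less RNA per cell cannot be told apart.

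None of the pathway genes differed between the genotypes after adjustment, 0 of 31 tested at P1, 0 of 29 at P30 and 0 of 31 for the difference. At P1, 2 of the 31 had an unadjusted p under 0.05, where 1.62% of all probes did. *Srr*, the serine racemase that makes D-serine, read 10.19 ± 0.13 in WT and 10.51 ± 0.24 in *Mef2c*-het mice (SD, n = 4), a log2 difference of 0.32 (95% interval 0.05 to 0.59, adjusted p = 1.00, limma). *Slc7a10* differed by -0.22 (-0.44 to -0.0039, adjusted p = 1.00). At P30 an unadjusted p under 0.05 was reached by *Reln* alone of the 29, where 2.36% of all probes reached it. *Reln* read 11.62 ± 0.066 in WT and 11.41 ± 0.12 in *Mef2c*-het mice (SD, n = 4), a difference of -0.21 (-0.37 to -0.04, adjusted p = 0.976, limma). For the difference between the ages *Camk2b* alone of the 31 reached it, where 2.96% of all probes did. Its value was -0.29 (-0.56 to -0.02, adjusted p = 0.998, limma). These small counts are read against the shares over all probes. At the other age the differences were 0.07 for *Srr* and -0.00061 for *Slc7a10* at P30, and 0.0026 for *Reln* at P1. The groups overlapped for *Srr*, *Slc7a10* and *Reln*. The median difference of the pathway genes was 0.04 at P1 and -0.03 at P30, against 0.00 and -0.01 over all probes.

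**Figure D4:**
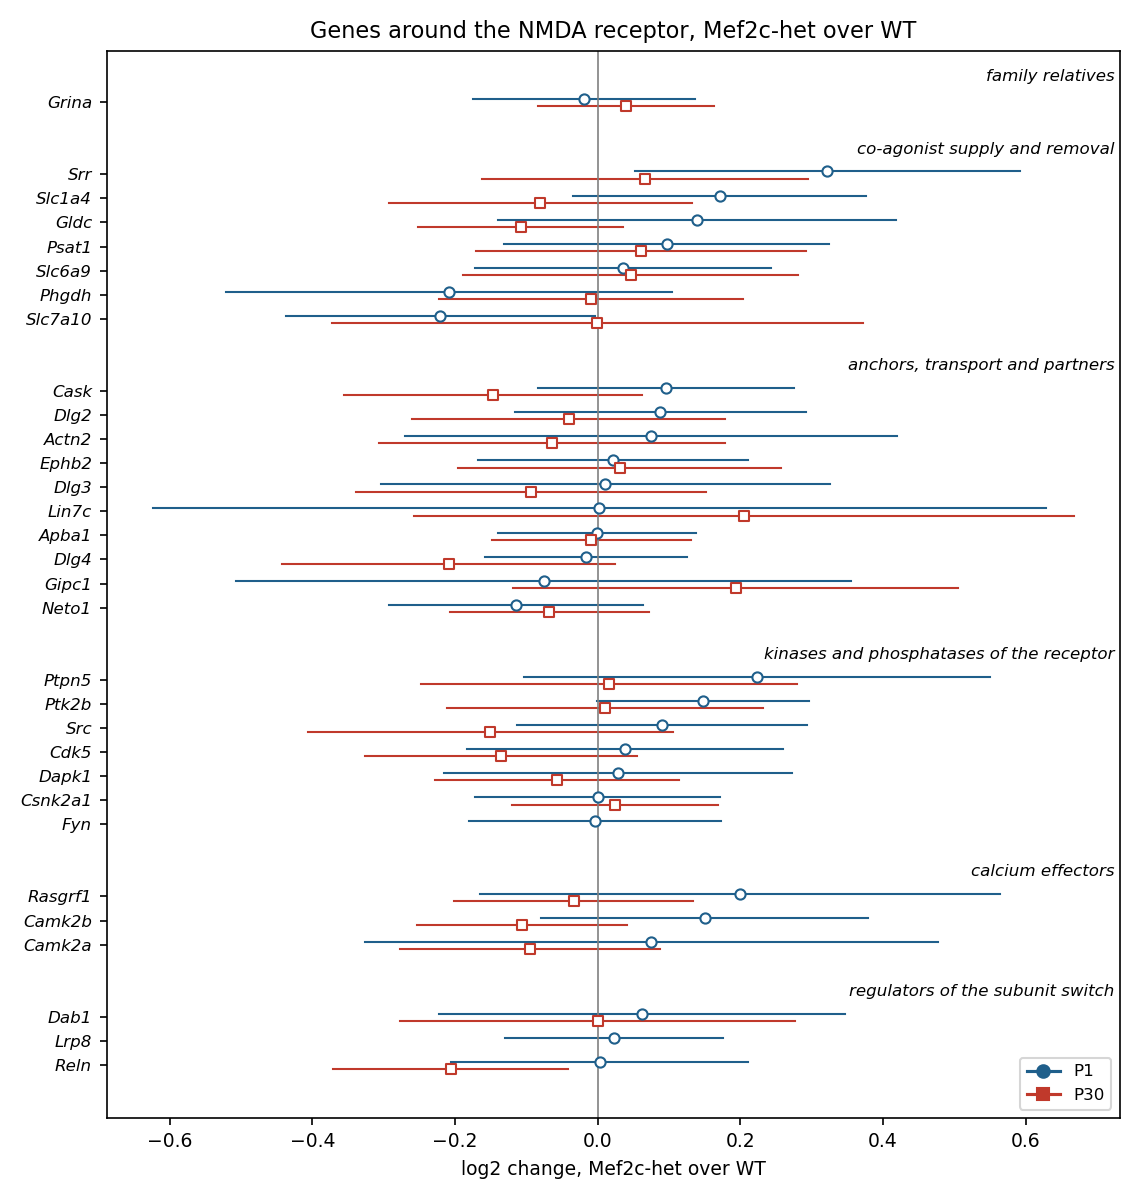
Log2 difference of *Mef2c*-het from WT (x axis) for the tested genes around the NMDA receptor at P1 (blue circles) and P30 (red squares), with unadjusted 95% intervals from limma; open symbols did not pass an adjusted p of 0.05. No symbol is filled, and *Fyn* and *Lrp8* were tested at P1 only.

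The genes whose signals were most like those of the members over the 16 arrays are given as a description, since the arrays share 2 ages and 2 genotypes. For *Grin1* (ILMN_1253164) they were *Rgs4*, *Ogfrl1* and *Kcnip2*, with Pearson r of 0.985, 0.985 and 0.984. For *Grin2b* they were *Efcab14* (0.940), *Zfp738* (0.925) and *B3gat1* (0.917), and for *Grin2a* *ORF61*, *Mlf2* and *Schip1* (0.868 to 0.866). For *Grin2c*, which did not follow age, they were *Ifnar2* (0.904), *Stk40* (0.774) and *Ppnr* (0.749).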

How the data were processed

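Hippocampal RNA was labelled with biotin and hybridised by the authors to 16 arrays of MouseRef-8 v2 beadchips. The authors deposited, per the file headers, the mean bead intensity of each of 25697 probes on a linear scale without normalization, a detection p-value from the negative controls, a bead standard error in intensity units and the count of beads. Any local background subtraction is not given in the sources used here. The submitters' processing notes name lumi and limma, and the methods state log2 and quantile normalization.

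From these intensities log2 values were quantile normalized over the arrays of each fit and tested with limma 3.58.1 in R 4.3.3 (lmFit, eBayes, two-sided, Benjamini-Hochberg over all probes tested). Age effects and the difference of genotype effects came from a fit of 16 arrays, and genotype effects from the 8 arrays of each age. A probe entered when 4 or more arrays of the fit gave it a detection p below 0.05. The detection filter and the arrays normalized together were chosen here. RefSeq gene names (GRCm38.p6) were found for 25376 probes, and 321 kept the deposited symbol. Single values were compared by two-sided exact permutation over arrays. A bound against undetected probes used, on each array, the higher of the probe's own signal and the dimmest detected signal. It is a ratio of group means and does not include the spread between arrays.

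Named pathway genes were, by role, up to 2 largest called rises and up to 2 largest called falls with age in WT, and each listed gene with an unadjusted p under 0.05 between genotypes, then given at both ages, read by the probe of highest mean signal. For likeness, the 3 genes of highest Pearson r were named for the highest tested probe of each member. The members, lists and rules were chosen with earlier results of these data known.

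Alternatives were normexp background correction (offset 16), no filter, median scaling, a stricter detection p of 0.01, cyclic loess, trend and robust variances, array cluster as a block, the larger clusters alone, sex as a covariate, replicate number as a block, other sets of arrays in the fit, and each array left out in turn. The steps were tested on simulated data. Arrays had a median of 36 to 39 beads a probe, and the 4 arrays per group limit the precision of a comparison. Whether the replicate numbers shared by the genotypes (1, 4 and 8 at P1, 3, 6 and 7 at P30) pair the samples could not be determined. Deviations of same-numbered arrays correlated at 0.09, 0.35 and 0.77 at P1 and at 0.15, -0.47 and 0.65 at P30. The pairs at 0.77 and 0.65 each lay within the smaller cluster of their age. With replicate number as a block, 949 of 13566 probes at P1 had an unadjusted p under 0.05 in limma, against 220 without it. At P30 these were 502 and 316 of 13413.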

Additional observations from a re-analysis of the deposited data

Results flagged for a closer look

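Of 24 groups of 4 arrays (6 probes in 4 groups), 2 held an array far from the other 3, where chance flags about 1 in 20 groups, or 1.2 here. For *Grin1* ILMN_1216667, WT P30 replicate 7 was the lowest at 7.50, against 7.67 to 7.70 on the others, and its gap was 0.866 of the group's range. This array belongs to the smaller P30 cluster with the higher 5th percentile of signal, whose part in this value was not tested. For *Grin2a* ILMN_2623457, *Mef2c*-het P30 replicate 5 was the highest at 7.42, against 7.26 to 7.29, a gap of 0.847 of the range, and it was the array of that group that detected the probe. Without it the probe was detected on too few arrays to be tested.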

How the results depend on the processing

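The number of NMDA receptor probes called in WT P30 over P1 moved from 4 to 2 with a detection p under 0.01, where 3 were tested, and to 2 in the larger array clusters alone, where 4 were tested; both *Grin1* probes stayed called in each setting. It ranged from 3 to 4 with an array left out, and that of *Mef2c*-het mice from 2 to 3 (2 without *Mef2c*-het P30 replicate 7); the latter was also 2 in both settings above and 4 with normexp correction. No genotype comparison called a member under any alternative or array left out. In these fits at most 3 of all probes tested were called at P1, at most 1 at P30 and 0 for their difference. The absence of member calls is therefore not particular to the members. At P1 *Grin2c* was the only member tested, except with no filter and with the 16 arrays together. With the replicate block, 0 member probes were called at P1, at P30 and for their difference, where 3 of 13566, 0 of 13413 and 0 of 14777 probes were called. Within a genotype no number is shared between the ages, so no paired fit of the age comparisons was possible. With normexp correction the age changes of members grew by over 1.5 times, to 2.39 in WT and 1.96 in *Mef2c*-het mice for *Grin1* ILMN_1253164, to 1.27 and 1.29 for *Grin1* ILMN_1216667, and to 0.66 for *Grin2a* in WT and 0.62 for *Grin2b* in WT and 0.61 in *Mef2c*-het mice. With sex as a covariate the members called with age were again 4 in WT and 3 in *Mef2c*-het mice, where 7584 and 8167 of 14777 probes were called in either direction. All P30 mice were read as male, so the sex term rests on the P1 arrays, with 3 males and 5 females. WT and *Mef2c*-het replicate 8, which form the smaller P1 cluster, were both male. Sex is therefore partly confounded with cluster at P1. Uncalled values near 0 turned sign: *Grin2c* with age in *Mef2c*-het mice to -0.040 with sex as a covariate; *Grin2c* at P1 to -0.036 in the larger cluster and -0.014 with sex; *Grin2b* at P30 to -0.0048 and the age difference of *Grin1* ILMN_1216667 to -0.044 in the larger clusters. *Reln* at P1 turned to -0.0091 with median scaling, -0.028 with cyclic loess, -0.026 in the larger cluster, -0.045 with sex, -0.0067 with 16 arrays normalized together and -0.078 with the replicate block. *Slc7a10* at P30 turned to 0.039 with median scaling, 0.034 with cyclic loess and 0.052 with the replicate block. With an array left out, *Grin2c* ranged from -0.023 to 0.12 with age in *Mef2c*-het mice and from -0.075 to 0.072 at P1. At P30 *Grin1* ILMN_1216667 ranged from -0.0011 to 0.084, *Grin2a* from -0.036 to 0.0067, *Grin2b* from -0.014 to 0.034, *Slc7a10* from -0.10 to 0.14 and *Srr* from -0.034 to 0.14, and at P1 *Reln* from -0.072 to 0.054. The difference of genotype effects ranged from -0.017 to 0.081 for *Grin1* ILMN_1216667 and from -0.055 to 0.027 for *Grin2b*. *Grin2a* minus *Grin2b* ranged from -0.013 to 0.082 with age in WT, from -0.11 to -0.030 in *Mef2c*-het mice and from -0.067 to 0.019 between genotypes at P30. The causes were not tested. A second probe for *Grin2a* or *Grin2b* was planned and not run, since each has 1 probe. Signals close to background limit what these probes can show.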
